A study of Mus musculus with 15 samples.

Results

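Keratins are the intermediate filament proteins of epithelial cells, and 8 of their genes are described here in cultured mouse hepatocytes: Krt7, Krt8, Krt14, Krt18, Krt19, Krt20, Krt23 and Krt80. They were taken by gene name from the 27343 named genes of the array, where 10 probes carry them, and Krt7 and Krt8 have 2 probes each. RNA was hybridised to 15 Agilent 1-colour arrays on 5 slides, scanned on 2 days. Expandable hepatocytes of 3 mice gave 7 mHep and 7 eHep arrays: 3 of each kind from the mouse 129S1-No1, 3 of each from C57B6-No1, and a single mHep and a single eHep array from 129S1-No2. The last array held primary hepatocytes isolated from C57B6 mice by collagenase perfusion. The labels describe cultures of 21 days in differentiation or in expansion medium. The abbreviation mHep is not spelled out in them, and is read here as cells kept in differentiation medium, and eHep as cells kept in expansion medium. For the mHep array of 129S1-No2 the source name reads eHep and the title mHep, and the title was followed. The labels give no age, genotype beyond strain or number of pooled animals, and with 1 or 2 mice per strain, strain and animal cannot be told apart.

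A keratin filament is built from pairs of an acidic type I keratin and a basic type II keratin, so that each partner needs the other to form stable filaments. Adult hepatocytes are known for a simple pair, Krt8 (type II) with Krt18 (type I), which protects the cell against mechanical and toxic stress and collects in the inclusion bodies of injured liver. Bile duct cells hold Krt8 and Krt18 as well, and add Krt7 (type II) and Krt19 (type I), which is why these are used as biliary markers in liver. Krt20 is a type I keratin of intestine, urothelium and Merkel cells, Krt23 is a type I keratin found in several glandular epithelia, Krt14 is the type I keratin of basal cells in stratified epithelia, and Krt80 is a type II epithelial keratin.

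Array readings come from 60-base probes, and 6 of the 10 are shown because every keratin reading rests on such a stretch, and to let the probes of the partners Krt8 and Krt18 be compared. Positions are those of the array files in mm9, sequences run 5′ to 3′ along the gene, and capitals mark the longest run that the printed Krt8 and Krt18 probes share, 11 bases. Among 43 pairs of probes from different members the longest shared run was 4 to 11 bases, and the pair in capitals was the 1 pair that reached 11. Exon or intron annotation of mm9 was not used here.
Krt18, chr15:101862341-101862400, plus strand: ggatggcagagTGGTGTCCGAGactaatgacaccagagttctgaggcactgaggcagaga
Krt8 (second probe), chr15:101827346-101827405, minus strand: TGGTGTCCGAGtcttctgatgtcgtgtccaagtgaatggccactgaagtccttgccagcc
Krt19, chr11:100002392-100002451, minus strand: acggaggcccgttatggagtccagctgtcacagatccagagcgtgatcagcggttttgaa
Krt7 (second probe), chr15:101253718-101253777, plus strand: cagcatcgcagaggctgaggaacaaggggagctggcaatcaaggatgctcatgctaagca
Krt23, chr11:99339393-99339452, minus strand: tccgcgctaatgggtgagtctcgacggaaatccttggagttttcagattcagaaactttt
Krt14, chr11:100064683-100065288, minus strand, where 60 bases are placed over 606: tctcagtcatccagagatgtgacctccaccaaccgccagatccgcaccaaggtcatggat

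The members sit in the 2 keratin clusters of the mouse genome, with neighbours taken from RefSeq's gene order (GRCm38.p6) and probe distances from the array files. Krt8 and Krt18 are neighbours on chromosome 15 with no coding gene between them, although 1 is of type II and the other of type I, and the main probes lie 35127 bases apart. Krt20 and Krt23 are neighbours on chromosome 11, with main probes 49617 bases apart, and Krt7 and Krt80 are neighbours on chromosome 15. Between Krt19 and Krt14 lies 1 coding gene, Krt9.

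A level is the log2 of the processed signal minus the log2 of the array's 75th percentile of signals, so that 0 is a probe as bright as that percentile, and the levels of different probes are not set against each other. Across the cultured arrays the percentile itself ranged from a signal of 248.6 to 826.3, against 78.3 on the primary array, and 48.8% to 61.8% of probes were well above background, against 36.3%. The hepatocyte label was checked with 6 genes (Alb, Ttr, Apoa1, Hnf4a, Serpina1b, Cps1). The mHep arrays held 5 to 6 of them above background and the eHep arrays 2 to 3, against 6 of 6 on the primary array, with transthyretin (Ttr) dark on all 7 eHep arrays. Summed as multiples of the 75th percentile, these 6 gave 103 to 545 in mHep, 1.17 to 7.76 in eHep and 5433 in primary cells. Arrays of a mouse are repeats of that mouse, so mice are the replicates in comparisons over 3 mice. Within a mouse, p-values measure only the spread between its arrays, which may be technical.

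**Figure D1:**
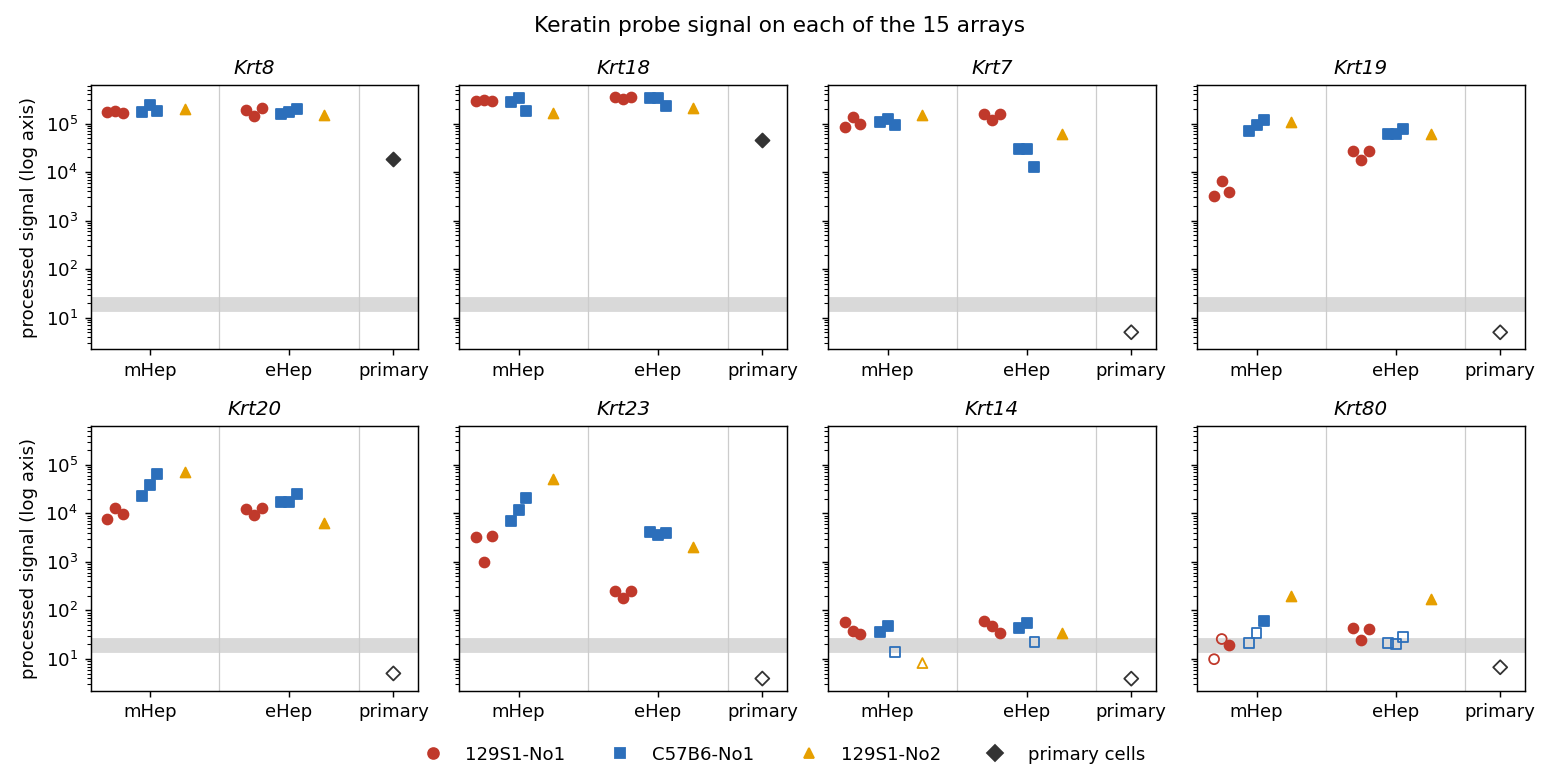
Processed signal of the main probe of each keratin on every array (log axis), with mHep and eHep arrays by mouse and the single primary array. Open symbols were not well above background and the grey band spans the lowest signals called well above background on the 15 arrays. Krt8 and Krt18 are bright on all 15 arrays, and the other members are dark on the primary array.

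Krt8 and Krt18, the hepatocyte pair, were bright on every array, cultured or primary. Krt8 read 164541 to 236348 on the mHep arrays and 143772 to 209274 on the eHep arrays, against 18276 on the primary array. Krt18 read 166214 to 331112 on the mHep arrays and 211458 to 352269 on the eHep arrays, against 46702 on the primary array. The 75th percentile of signals was lower on the primary array as well, and after scaling neither gene passed the test against primary cells.

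On the log2 scale Krt8 averaged 8.38 ± 0.35 in mHep and 8.41 ± 0.87 in eHep (SD, n = 3 mice), against 7.87 on the primary array. Krt18 averaged 8.67 ± 0.49 in mHep and 9.15 ± 1.07 in eHep, against 9.22. In limma, with 3 mouse means per medium and 1 primary array, Krt8 differed from the primary array by 0.51 ± 0.76 in mHep (SE, 95% interval -1.31 to 2.33, adjusted p = 0.698) and by 0.54 ± 0.76 in eHep (-1.28 to 2.36, adjusted p = 0.682). For Krt18 the difference was -0.55 ± 0.89 in mHep (-2.66 to 1.57, adjusted p = 0.725) and -0.07 ± 0.89 in eHep (-2.19 to 2.04, adjusted p = 0.965). These calls depended on the scaling: under quantile normalization Krt8 was higher than in primary cells by 2.50 in mHep (adjusted p = 0.029) and 2.15 in eHep (adjusted p = 0.0368), and Krt18 by 1.58 in mHep (adjusted p = 0.0595) and 1.71 in eHep (adjusted p = 0.0385). The median difference over all genes was -0.34 in mHep and -0.19 in eHep against primary, and 0.23 and 0.32 under quantile normalization.

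Krt7 and Krt19, the biliary keratins, were dark on the primary array and bright in every culture. The main Krt7 probe read 83352 to 148520 on the 7 mHep arrays and 12927 to 158961 on the 7 eHep arrays, and 5.03 on the primary array, where probes were called well above background only from a signal of 18.1. Krt19 read 3173 to 120518 on the mHep arrays, 17706 to 78149 on the eHep arrays and 5.01 on the primary array. No cultured array came near the primary reading for either gene. In bulk RNA such as this, fewer cells that express a gene and less RNA per cell cannot be told apart.

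Since the primary reading is only a bound, folds against it are given as minima, from the mean of the mice over the dimmest signal well above background on that array. Krt7 was at least 906-fold higher in mHep (681 to 1089 by mouse, adjusted p = 0.00362) and at least 511-fold higher in eHep (209 to 2031, adjusted p = 0.00369) than in primary cells. Its second probe, printed above, gave at least 113-fold in mHep and at least 47.4-fold in eHep. Krt19 was at least 264-fold higher in mHep (27.985 to 855 by mouse, adjusted p = 0.0227) and at least 401-fold higher in eHep (318 to 608, adjusted p = 0.0138). The adjusted p-values are limma's with Benjamini-Hochberg correction over 15168 genes, they test the difference from the dark primary reading as measured and not the bound, and the single primary array was assumed to vary as the mouse means do.

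Krt20 and Krt23 were dark on the primary array too, so their adjusted p-values again test the difference from the dark reading and not the bound. Krt20 read 7733 to 69822 on the mHep arrays and 6380 to 25578 on the eHep arrays, against 5.04 on the primary array. It was at least 227-fold higher in mHep (64.9 to 512 by mouse, adjusted p = 0.00908) and at least 99.3-fold higher in eHep (33.5 to 182 by mouse, adjusted p = 0.0107). Krt23 read 989 to 50015 on the mHep arrays and 179 to 4062 on the eHep arrays, against 3.96 on the primary array. It was at least 83.6-fold higher in mHep (14.5 to 367 by mouse, adjusted p = 0.0383). In eHep its bound was 10.6-fold (3.18 to 35.8 by mouse), and the difference did not pass the test (adjusted p = 0.101). It passed in 6 of 12 alternatives, among them without 129S1-No1 (adjusted p = 0.0199), with C57B6-No1 alone (adjusted p = 5.05e-05), within the earlier scan (adjusted p = 0.0105) and under quantile normalization (adjusted p = 0.0407).

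**Figure D2:**
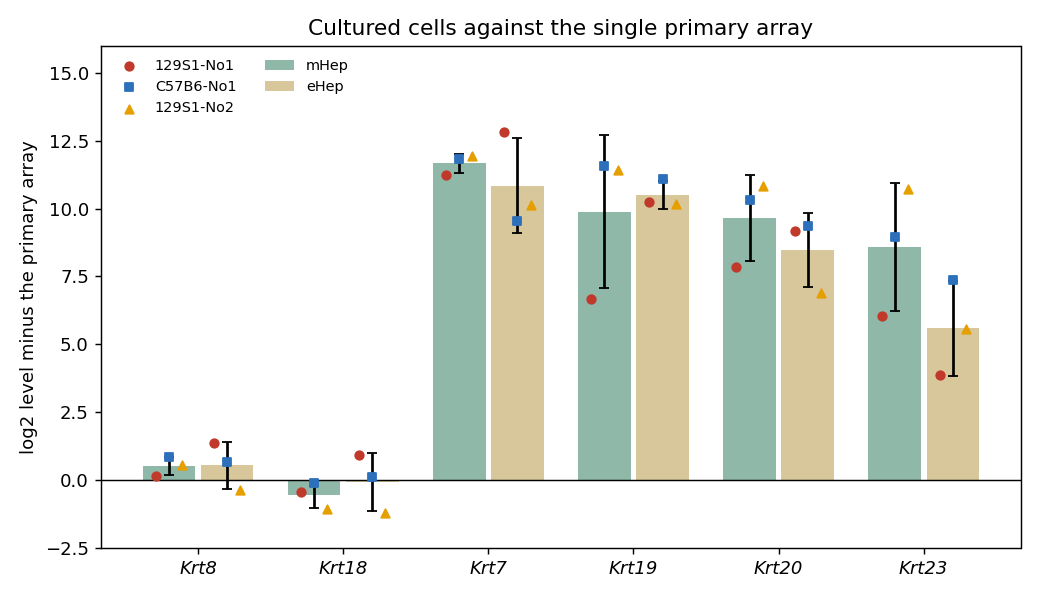
Log2 level of 6 keratins in mHep and eHep minus the level measured on the single primary array. Bars are means of 3 mice with SD, symbols are mouse means, and for Krt7, Krt19, Krt20 and Krt23 the primary reading was below the background limit, so those heights rest on a dark reading. Krt8 and Krt18 lie near 0, and the other 4 lie above it in every mouse.

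Altogether 4 of the 8 keratins were called higher in mHep than in primary cells (Krt7, Krt19, Krt20, Krt23) and 3 of 8 in eHep (Krt7, Krt19, Krt20), with none lower. Over all genes tested, 9.99% were called between mHep and primary (4.02% higher in mHep) and 15% between eHep and primary (5.62% higher in eHep). A call needed an adjusted p under 0.05 and a 2-fold difference, and both comparisons share the 1 primary array. The called keratins were dark on that array and passed the filter only through the cultures, which favoured a higher call. Without C57B6-No1 the calls of Krt19 and Krt20 were lost in both media (adjusted p = 0.0892 and 0.0575 in mHep, 0.0515 and 0.0558 in eHep), as was that of Krt23 in mHep (adjusted p = 0.114). The call of Krt23 in mHep was also lost without 129S1-No2 (adjusted p = 0.0619), and those of Krt19 (adjusted p = 0.0698) and Krt23 (adjusted p = 0.109) in mHep under normexp background correction.

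The primary array shared its slide with 3 cultured arrays, mHep C57B6-No1 replicate 3, eHep C57B6-No1 replicate 3 and eHep 129S1-No2, which gives a comparison within 1 slide and scan. Krt19 read 120518 on that mHep array, and 78149 and 60528 on the eHep arrays, against 5.01 for primary cells. Krt7 read 93599, 12927 and 59827 there, against 5.03. Within this slide, then, the biliary keratins showed the same contrast. Krt8 levels on it were 8.02, 8.22 and 7.48, against 7.87, and Krt18 levels 8.03, 8.44 and 7.9995, against 9.22, so Krt18 was lower than in primary cells on each of the 3 cultured arrays by this scale, with no test on single arrays.

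Between the 2 media the keratins had no common direction over the 3 mice, and none of the 8 passed the test (limma with mouse as a block), beside 1.84% of 14597 genes called. In 129S1-No1 the change from eHep was downward for 7 of the 8, and in the other 2 mice it was upward for Krt7, Krt8, Krt19, Krt20, Krt23 and Krt80. Krt23 was the member whose change had 1 sign, higher in mHep in 3 of 3 mice, apart from Krt14, which was lower in 3 of 3. The median change of the members was -0.15, beside -0.10 over all genes.

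Krt23 changed by 2.19 in 129S1-No1, by 5.14 in 129S1-No2 and by 1.61 in C57B6-No1 on the log2 scale (mHep minus eHep), a mean of 2.98 ± 0.73 (SE, adjusted p = 0.127, unadjusted p = 0.00639). Its levels were 0.44 to 6.40 on the mHep arrays and -0.55 to 3.32 on the eHep arrays, so the groups overlapped across mice. Within each mouse the mHep arrays lay above the eHep arrays, and the share of all genes that did so was not counted. The call depended on the unit and the mice: adjusted p was 0.0181 without 129S1-No1, 0.0021 without C57B6-No1, 0.0499 without 129S1-No2, and 0.00118 with 14 arrays as samples. Within the earlier scan day the difference was 3.69 (adjusted p = 0.00107), and within the later one 1.74 (adjusted p = 0.107).

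The other changes scattered around 0. Krt19 changed by -3.58, 1.28 and 0.49 in the 3 mice in the same order (mean -0.60 ± 0.94, adjusted p = 0.830). Krt20 changed by -1.31, 3.93 and 0.96 (mean 1.19 ± 0.95, adjusted p = 0.631) and Krt7 by -1.58, 1.79 and 2.26 (mean 0.83 ± 0.79, adjusted p = 0.697). For Krt7, Krt19 and Krt20 the mouse 129S1-No1 had the opposite sign to the other mice. Without it Krt7 was higher in mHep by 2.03 (adjusted p = 0.0181) and Krt20 by 2.45 (adjusted p = 0.0473), while Krt19 stood at 0.89 (adjusted p = 0.295). Among arrays of the earlier scan day Krt7 differed by 2.28, Krt20 by 2.59 and Krt19 by 0.90, and among those of the later day by 0.22, -0.25 and -1.55. Every 129S1-No1 array was scanned on the later day and every 129S1-No2 array on the earlier one, while C57B6-No1 lay on both, so scan and mouse moved together.

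The hepatocyte pair had mean differences under 0.5 between the media, with intervals that reach past 1 in at least 1 direction. The mean difference was -0.03 ± 0.51 for Krt8 (SE, 95% interval -1.28 to 1.22, adjusted p = 0.991) and -0.47 ± 0.45 for Krt18 (-1.57 to 0.62, adjusted p = 0.695). For the dim members it was -1.06 ± 0.42 for Krt14 (adjusted p = 0.323) and -0.27 ± 0.66 for Krt80 (adjusted p = 0.894).

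**Figure D3:**
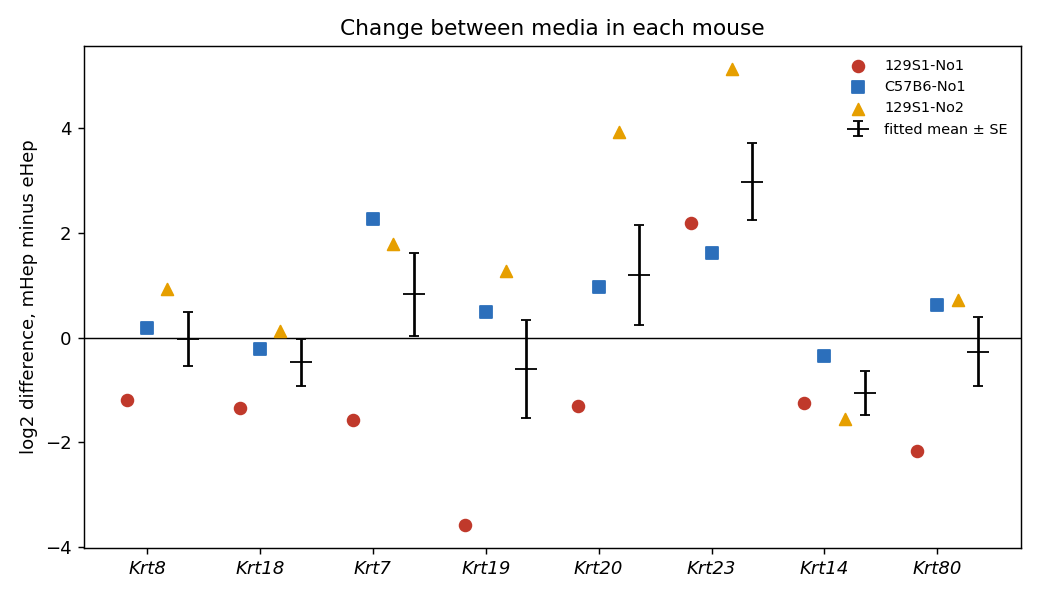
Log2 difference between mHep and eHep for each keratin in each of the 3 mice (symbols), with the mean and SE of the fit. Krt23 lies above 0 in every mouse, and for Krt7, Krt19 and Krt20 the 129S1-No1 mouse lies below 0 while the others lie above it.

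Within 129S1-No1, 6 keratins fell in mHep (Krt7, Krt8, Krt18, Krt19, Krt20, Krt80) and Krt23 rose, where 44.5% of 15743 genes were called. The fall of Krt19 was the most pronounced. Its levels were 2.34, 3.14 and 2.59 on the mHep arrays, against 6.19, 6.15 and 6.46 on the eHep arrays, a fall by 3.58 on the log2 scale (11.9-fold lower, SE 0.27, adjusted p = 7.03e-06). It kept its direction and its call in 21 of 21 alternatives. Medium and slide coincided in this mouse, since all its eHep arrays lay on 1 slide and all its mHep arrays on another. With slide as a block, Krt19 fell by 3.65 (adjusted p = 0.00371). These slides were linked only by 1 eHep array of C57B6-No1 on each, so the slide term rests on that pair of arrays.

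Krt20 levels in 129S1-No1 were 3.62, 4.17 and 3.91 on the mHep arrays, against 5.07, 5.23 and 5.34 on the eHep arrays (fell by 1.31, SE 0.21, adjusted p = 0.000824). Krt7 levels were 7.06, 7.55 and 7.28 on the mHep arrays, against 8.73, 8.89 and 8.99 on the eHep arrays (fell by 1.58, SE 0.53, adjusted p = 0.0337). The arrays of the 2 media did not overlap for either gene, nor for any other member in this mouse. The share of all genes without overlap was not counted. The calls of both were lost under quantile normalization, where Krt20 differed by -0.80 (adjusted p = 0.0553) and Krt7 by -0.49 (adjusted p = 0.329), and that of Krt7 with slide as a block (adjusted p = 0.0582) and without any single array of this mouse (adjusted p = 0.0613 to 0.0956). Krt23 levels were 2.35, 0.44 and 2.44 on the mHep arrays, against -0.55, -0.47 and -0.32 on the eHep arrays, and it rose by 2.19 (SE 0.46, adjusted p = 0.00385). With slide as a block the rise was 2.29 and not called (adjusted p = 0.111).

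Krt8 and Krt18 fell in 129S1-No1 by 1.19 (SE 0.32, adjusted p = 0.0124) and 1.34 (SE 0.48, adjusted p = 0.0436), while the raw Krt8 signals of the media overlapped. Krt8 read 169053, 182866 and 164541 on the mHep arrays of this mouse, against 194012, 143772 and 209274 on its eHep arrays. The 75th percentile by which they were scaled was 626.8 to 726.8 on those mHep arrays, against 248.6 to 363.1 on the eHep arrays. Under quantile normalization the differences were -0.07 for Krt8 (adjusted p = 0.798) and -0.30 for Krt18 (adjusted p = 0.162). With slide as a block neither was called (adjusted p = 0.052 and 0.079), and the call of Krt18 was lost in 12 of 21 alternatives, among them those without any single array of this mouse (adjusted p = 0.0734 to 0.114).

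Within C57B6-No1, by contrast, Krt7, Krt20 and Krt23 rose in mHep and none fell, where 25.2% of genes were called. Krt7 levels were 8.74, 7.77 and 7.05 on the mHep arrays, against 6.20, 6.29 and 4.29 on the eHep arrays (rose by 2.26, SE 0.53, adjusted p = 0.00981). Krt20 levels were 6.45, 6.08 and 6.52 on the mHep arrays, against 5.40, 5.49 and 5.28 on the eHep arrays (rose by 0.96, SE 0.21, adjusted p = 0.00686). Krt23 levels were 4.75, 4.38 and 4.85 on the mHep arrays, against 3.32, 3.22 and 2.60 on the eHep arrays (rose by 1.61, SE 0.46, adjusted p = 0.0247). For all 3 genes every mHep array lay above every eHep array of this mouse, as for Krt19 and Krt80. The share of all genes that did so was not counted. With slide as a block Krt23 was not called (2.25, adjusted p = 0.0943), nor without replicate 3 of mHep (adjusted p = 0.0614) or of eHep (adjusted p = 0.065).

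Krt19 levels in C57B6-No1 were 8.10, 7.36 and 7.41 on the mHep arrays, against 7.22, 7.29 and 6.89 on the eHep arrays, a difference of 0.49 (SE 0.27, adjusted p = 0.230). In 129S1-No2, with 1 array per medium and no test, Krt19 stood at 7.47 in mHep and 6.19 in eHep, and Krt23 at 6.40 in mHep and 1.26 in eHep. Krt20 stood at 6.88 in mHep and 2.95 in eHep there. So the mHep level of Krt19 was 7.36 or more on the 4 arrays of these 2 mice and 3.14 or less on the 3 arrays of 129S1-No1.

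The difference between the mice was tested directly. The change of Krt19 (mHep minus eHep) in 129S1-No1 minus that in C57B6-No1 was -4.07 (SE 0.39, adjusted p = 0.000136), that of Krt7 -3.84 (SE 0.75, adjusted p = 0.00725), that of Krt20 -2.27 (SE 0.30, adjusted p = 0.000803) and that of Krt80 -2.80 (SE 0.43, adjusted p = 0.00201). These 4 of 8 members were called, where 16.6% of genes were. Krt8 (-1.36, adjusted p = 0.0613), Krt18 (-1.13, adjusted p = 0.272), Krt14 (-0.90, adjusted p = 0.543) and Krt23 (0.58, adjusted p = 0.549) did not pass. Without mHep C57B6-No1 replicate 3, Krt8 (-1.71, adjusted p = 0.00746) and Krt18 (-1.66, adjusted p = 0.0446) passed as well. The mice are 1 animal of each strain.

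In eHep, Krt7 and Krt80 were higher and Krt19 and Krt23 lower in 129S1-No1 than in C57B6-No1, 4 of 8 members called where 27.5% of genes were. The Krt7 level was higher by 3.28 (SE 0.53, adjusted p = 0.00105) and that of Krt23 lower (-3.49, SE 0.46, adjusted p = 0.000256). Krt19 differed by -0.86 (SE 0.27, adjusted p = 0.0383), and its call was lost in 10 of 21 alternatives. Krt7 and Krt19 thus ranked the 2 mice in opposite order in expansion medium.

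In mHep, Krt19, Krt20, Krt23 and Krt80 were lower in 129S1-No1 than in C57B6-No1, 4 of 8 members called where 27.8% of genes were. Krt19 differed by -4.93 (SE 0.27, adjusted p = 6.29e-07), Krt20 by -2.44 (SE 0.21, adjusted p = 1.04e-05) and Krt23 by -2.92 (SE 0.46, adjusted p = 0.000778). Krt7 differed by -0.56 (SE 0.53, 95% interval -1.73 to 0.61, adjusted p = 0.484). The differences of Krt19 and Krt20 kept their calls in 21 of 21 alternatives. The p-values measure the spread between arrays, with 1 animal on each side. The mHep arrays of 129S1-No1 shared no slide with those of C57B6-No1, so mouse and slide coincided here. With slide as a block, the C57B6-No1 side rests on its mHep replicate 3, since its other mHep arrays had a slide to themselves.

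The hepatocyte pair and the biliary pair were compared by their changes, mouse by mouse. Krt8 changed by -1.19 in 129S1-No1, by 0.92 in 129S1-No2 and by 0.18 in C57B6-No1 (mHep minus eHep), and Krt18 by -1.34, 0.13 and -0.21. The change of Krt19 exceeded that of Krt8 by -2.39, 0.35 and 0.32 in the same order, and the change of Krt7 exceeded it by -0.39, 0.87 and 2.08. Against Krt18 the values were -2.24, 1.14 and 0.71 for Krt19 and -0.24, 1.66 and 2.47 for Krt7. Within an array, then, where scaling cancels, Krt19 lost against both hepatocyte keratins in 129S1-No1 and gained on them in the other mice, and Krt7 had the same signs with a smaller loss.

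Raw signals of Krt8 varied 1.64-fold between the lowest and the highest of the 14 cultured arrays and those of Krt18 2.12-fold. Over the same arrays Krt7 varied 12.3-fold, Krt20 10.9-fold, Krt19 38.0-fold and Krt23 279-fold. The scaled level of Krt8 had a correlation of -0.94 with the 75th percentile of its array, and that of Krt18 -0.94, while their unscaled log2 signals had 0.10 and -0.56. Krt18 signals split by scan day, with 166214 to 229963 on the 4 cultured arrays of the earlier day and 277149 to 352269 on the 10 of the later day, while those of Krt8 overlapped. For Krt7 the correlation of the level was -0.59, for Krt20 -0.38, for Krt19 -0.38 and for Krt23 0.24. These are descriptions over 14 arrays of 3 mice that share slides and mice, and no p is given.

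**Figure D4:**
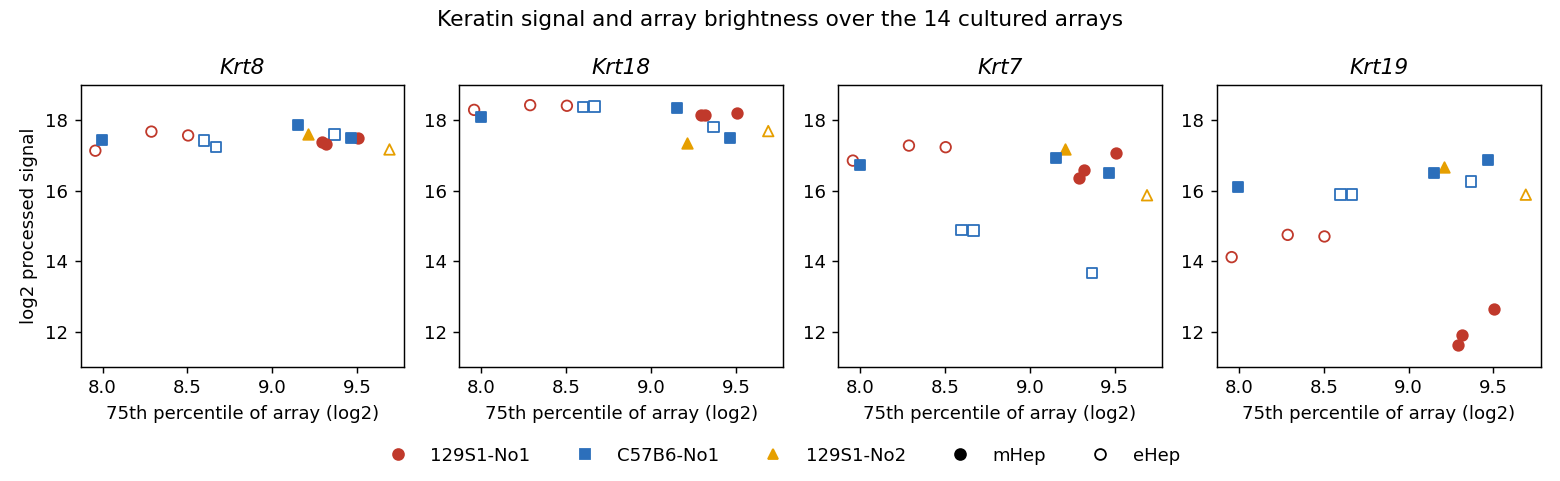
Log2 processed signal of 4 keratins against the log2 75th percentile of the same array, for the 14 cultured arrays (filled symbols mHep, open symbols eHep). Krt8 and Krt18 have high-to-low ratios of 1.64 and 2.12, the 4 lowest Krt18 signals are those of the earlier scan day, and Krt7 and Krt19 spread by mouse and medium.

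Krt14 and Krt80 were near the background. Krt14, the basal cell keratin, read 8.24 to 57.2 on the mHep arrays and 22.5 to 60.0 on the eHep arrays, against 3.94 on the primary array, and 11 of the 14 cultured readings were well above background. It was called in none of the comparisons. Krt80 read 9.91 to 202 on the mHep arrays and 20.1 to 170.5 on the eHep arrays, against 6.75 on the primary array, with 7 of 14 well above background. Both were dark on the primary array, and their cultured means lay under the dimmest level measured there, so no fold against primary cells is given.

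In 129S1-No1, Krt80 read 9.91, 25.8 and 19.5 on the mHep arrays, of which 1 was well above background, against 43.3, 24.1 and 42.3 on the eHep arrays, all 3 of them above it. It fell by 2.17 (SE 0.30, adjusted p = 0.000345). With dim readings raised to the limit of their array it was 3.48-fold lower, and under normexp background correction the difference of -0.25 was not called (adjusted p = 0.827). Since C57B6-No1 had 1 of 3 mHep readings and 0 of 3 eHep readings above background, the differences of Krt80 between these mice rest on signals at the limit. The difference of its change between them was not called with slide as a block (adjusted p = 0.052) or under normexp (adjusted p = 0.849). Its highest readings were those of 129S1-No2, 202 in mHep and 170.5 in eHep.

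Among the 38 other keratin genes of the array, 17 were above background on none of the 15 arrays, and 10 were above it on at least 50% of the arrays of a group. These were Krt1, Krt5, Krt10, Krt13, Krt16, Krt17, Krt33a, Krt33b, Krt75 and Krt84. Of the 7 tested over the mice, none was called between mHep and eHep, beside 1.84% of all genes. None was called against primary cells either, where 9.99% of all genes were for mHep and 15% for eHep. Within 129S1-No1, where 44.5% of all genes were called, 1 of 8 was, Krt13 (a keratin of internal stratified epithelia), which fell in mHep by 1.80 (SE 0.58, adjusted p = 0.0293). Signals of Krt13 were 703 to 1697 on the mHep arrays and 607 to 1886 on the eHep arrays, against 31.3 on the primary array. Krt5, the type II partner of Krt14, read 26.6 to 49.2 on the mHep arrays and 16.4 to 79.2 on the eHep arrays, against 3.99 on the primary array.

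Genes that work with keratins were taken as lists. Of 14 junction and linker genes, which anchor filaments at desmosomes, 1 was called between mHep and eHep: Dsc2, a desmosomal cadherin, was called higher in mHep (adjusted p = 0.0395), beside 1.84% of all genes called. Its signals were 26.4 to 294 on the mHep arrays, all above background, and 5.09 to 89.3 on the eHep arrays, of which 2 of 7 were, so no size is given. Dsc2 passed the filter only through its mHep arrays, which favoured a higher call there. None of the 14 was called against primary cells, where 9.99% of all genes were for mHep and 15% for eHep. E-cadherin (Cdh1), the adherens junction cadherin, moved in opposite directions in the 2 mice: it fell in mHep by 0.58 in 129S1-No1 (adjusted p = 0.0470) and rose by 1.19 in C57B6-No1 (adjusted p = 0.00218), and the difference of the changes was -1.77 (adjusted p = 0.00343).

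Of 8 other intermediate filament genes tested, 1 was called against primary cells, beside 9.99% of all genes for mHep and 15% for eHep. It was vimentin (Vim), the filament protein of mesenchymal cells. Its signal had a median of 25970 on the mHep arrays and 58256 on the eHep arrays, against 28.5 on the primary array (log2 difference 6.75, adjusted p = 0.00379, for mHep, and 8.40, adjusted p = 0.00201, for eHep). None of the 8 was called between mHep and eHep over the 3 mice, beside 1.84% of all genes. Vim fell within 129S1-No1 by 2.56 and within C57B6-No1 by 1.69 (adjusted p = 0.000474 and 0.00741), where 44.5% and 25.2% of genes were called. The cultures thus held RNA of simple epithelial keratins and of vimentin together.

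Of 11 tested transcription factors tied to epithelial or keratin genes, 5 were called higher in mHep than in primary cells and 4 in eHep, beside 4.02% and 5.62% of all genes. Klf6 rose by 7.04 in mHep (adjusted p = 0.00232) and 6.87 in eHep (adjusted p = 0.00168). Klf4, Klf5 and Tead4 were dark on the primary array and above background on all 14 cultured arrays, with adjusted p-values of 0.0283, 0.0205 and 0.0213 in mHep and 0.0181, 0.0126 and 0.0188 in eHep. Klf4, Klf5 and Tead4 thus passed the filter only through the cultures, which favoured a higher call. The list was chosen with earlier results of these data known, so its share of calls is no test of the list. Elf3, an epithelial ETS factor, was higher in mHep than in primary cells (2.64, adjusted p = 0.0325). Between mHep and eHep it differed by 2.14 (adjusted p = 0.0593). Of 9 genes of keratin turnover and inclusion bodies, 1 was called against primary cells, beside 9.99% of all genes for mHep and 15% for eHep. It was Tchp (trichoplein, a keratin-binding protein), dark on the primary array and above background on all 14 cultured arrays, so the filter favoured a higher call for it too.

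Markers of other cells were read beside the biliary keratins. Of 13 cholangiocyte genes other than keratins, 9 to 10 were above background on the mHep arrays and 8 to 10 on the eHep arrays, against 4 on the primary array. Their summed level, as a multiple of the 75th percentile, was 191 to 735 in mHep and 185 to 400.04 in eHep, against 8.40 in primary cells. Of 9 tested, Cd24a, Anxa13 and Bicc1 were called higher than in primary cells in both media. All of these were dark on the primary array and passed the filter only through the cultures, which favoured a higher call. Over all genes, 4.02% were called higher in mHep and 5.62% in eHep. Sctr and Muc1 were dark on all 15 arrays. Sox9, a factor of bile duct cells, and osteopontin (Spp1) were above background on every array. Their part in the keratin levels was not tested.

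Of 6 mesothelial genes, 1 to 4 were above background on the mHep arrays and 1 to 4 on the eHep arrays, and none on the primary array. The summed level was 9.25 to 292 in mHep and 77.4 to 384 in eHep, against 0.31. Most of it was mesothelin (Msln), which mesothelial and some other epithelial cells express, and Wt1 was dark on all 15 arrays. In 129S1-No1, where Krt19 fell, Msln fell in mHep by 4.63 (adjusted p = 9.35e-06), in C57B6-No1 it differed by -0.68 (adjusted p = 0.223), against 0.49 for Krt19, and the difference of the changes was -3.95 (adjusted p = 0.000896). In 129S1-No1 the summed mesothelial level was 9.25 to 23.7 on the mHep arrays, against 317 to 384 on the eHep arrays, while the summed cholangiocyte level was 191 to 248 on the mHep arrays and 185 to 245 on the eHep arrays. Without scaling, the cholangiocyte signals summed to 120014 to 180150 on the mHep arrays, against 57897 to 72851 on the eHep arrays. The unscaled mesothelial signals summed to 5799 to 17257 on the mHep arrays, against 81007 to 120110 on the eHep arrays. Among cholangiocyte genes of this mouse, Spp1 fell by 1.52 (adjusted p = 0.0116) and Sox9 fell by 2.37 (adjusted p = 0.000299) in mHep, and Cftr, near background, was called higher. In C57B6-No1 Sox9 fell by 1.20 (adjusted p = 0.0192) and Spp1 differed by 0.12 (adjusted p = 0.885). The summed squamous level of 129S1-No1 was 12.2 to 15.5 in mHep, against 412 to 518 in eHep, where most of it was Sprr1a. That sum was also lower in mHep in C57B6-No1, at 30.2 to 89.1, against 202 to 429 in eHep, and Sprr1a fell in both mice while Ly6d, dark on all eHep arrays, was called higher in both. Ly6d and Cftr passed the filter only through mHep arrays, which favoured a higher call there. The part of these genes in the fall of Krt19 was not tested.

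Stellate, macrophage and endothelial markers were summed in the same way. In 129S1-No1 the stellate sum was 13.9 to 16.6 in mHep, against 25.2 to 32.5 in eHep, and 13.9 in primary cells. The macrophage sum was 0.71 to 0.96 in mHep, against 2.15 to 2.85 in eHep, and the endothelial sum 0.20 to 0.26, against 0.31 to 0.38. In primary cells these were 4.06 and 3.09. Without scaling, the endothelial signals of 129S1-No1 summed to 130 to 186 in mHep, against 95.6 to 113 in eHep, and 1 to 2 of 5 endothelial genes were above background. The unscaled stellate signals overlapped, at 8885 to 12066 in mHep, against 6272 to 10150 in eHep. So did the macrophage signals, at 447 to 701 in mHep, against 535 to 896 in eHep. Of 5 macrophage genes tested, 2 (Clec4f and Adgre1) were called lower in both cultures than in primary cells, as was 1 of 3 endothelial genes (Cdh5). Only 2 of these macrophage genes and 1 endothelial gene passed the filter on cultured arrays. The others entered through the primary array, which favoured a lower call in culture. Over all 15168 genes, 906 were called lower in mHep than in primary cells and 1427 lower in eHep.

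The patterns of the members over the 14 cultured arrays were also set against 13516 genes above background on at least 10 of them. Krt8 and Krt18 had a correlation of 0.89 with each other, Krt19 and Krt20 of 0.75, and Krt7 and Krt19 of 0.01. The genes most like Krt18 were a clone named TC1721764 (0.998), the ribosomal protein genes Rps2 (0.997), Rpl38 (0.996) and Rps18 (0.995), and Rack1 (0.994). Those most like Krt8 were Naxe (0.983), Dgcr6 (0.981), Tbcb (0.980), a probe with no gene name (0.9750) and Rassf7 (0.974). For Krt19 they were Emp2 (0.981), Tmem164 (0.970), B3gnt3 (0.969), Obsl1 (0.968) and Sh3bp1 (0.963). For Krt7 they were an unnamed transcript (0.980), Lrmda (0.979), Rab3d (0.962), Tnfsfm13 (0.961) and Neurl3 (0.960). These arrays share mice, slides and the scaling described above, and the correlations are given as a description only. The scaled levels of Krt8 and Krt18 each had a correlation of -0.94 with the 75th percentile of their array. The part of that scaling in the correlations of Krt8 and Krt18 was not tested. Those most like Krt20 were led by Plekhb2 (0.950) and Ddah1 (0.950), and those most like Krt23 by Pparg (0.945), a nuclear receptor of fat metabolism, and Kazald1 (0.936).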

How the data were processed

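The 15 scanner files held, per the file headers, processed signal intensities, made by Agilent's Feature Extraction (version 10.7.1.1, or else 10.7.3.1), background-subtracted and not scaled between arrays. A deposited table of log2 values served as an alternative, and how it was made is not given in the sources used here. Spots of a probe were averaged without outlier spots (41174 probes), the log2 of each array's 75th percentile was taken off its log2 signals, and the probe with the highest mean stood for its gene (main probe). Among the 41174 probes, 27668 were named by accession, 5589 by symbol, 471 by an older symbol and 7446 as in the file. No probe was saturated. The number of arrays limits the precision.

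Genes well above background on all arrays of a medium in at least 2 of 3 mice (against primary, also those bright on the primary array; within mice, on all arrays of 1 mouse and medium) were tested with limma 3.58.1 in R 4.3.3 and Benjamini-Hochberg adjustment, on 6 mouse means with mouse as a block (mHep against eHep), 7 values (against primary) or 12 arrays of 129S1-No1 and C57B6-No1. The mouse pairs the media per the labels, and deviations of a mouse in mHep and eHep correlated at 0.40, 0.56 and 0.54. The tests were also run on simulated arrays with known changes. These had no mouse, slide or scan effect and the same change in every mHep array. They therefore did not check how the tests handle mice that differ. All 8 members, other keratins that were called or bright, and up to 4 called genes per list were named, and Elf3, the other-cell markers' leading genes and the genes most like Krt20 and Krt23 were added after their values were seen. Members and lists were chosen with earlier results of these data known. Alternatives were normexp background, quantile scaling, the percentile of detected probes, the deposited table, no filter, all probes, robust moderation, other units or blocks, scan days, and leaving out mice or arrays. Tables and figures used pandas 2.3.3 and matplotlib 3.10.9 in Python 3.11.15.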

Additional observations from a re-analysis of the deposited data

Results flagged for a closer look

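Krt20 on the eHep array of 129S1-No2 lay far below the other 6 eHep arrays, with a log2 level of 2.95. The gap to the next array was 0.83 of the whole range. That is above the cutoff that chance passes in about 5% of groups of independent samples. The rule was applied to each of the 8 keratins in mHep and in eHep, and this was its only flag. Over that many groups, 1 flag would not be unusual. The 7 arrays are not independent, since the other 6 are repeats of 2 mice and this is the single eHep array of its mouse. The signal there was 6380, against 9356 to 25578 on the other eHep arrays.

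The change between mHep and eHep differed between 129S1-No1 and C57B6-No1 by the test of the difference itself for 4 keratins. On the log2 scale, 129S1-No1 minus C57B6-No1, it was -4.07 for Krt19, -3.84 for Krt7, -2.80 for Krt80 and -2.27 for Krt20.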

How the results depend on the processing

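Of the keratins' values under the alternatives, 972 kept their direction and their side of the threshold, 57 lost a call, 36 gained one and 41 turned in sign, and the cause was not tested. Calls between mHep and eHep over 3 mice (268) became 176 under normexp, 110 under quantile normalization and in the deposited table, 105 with the percentile of detected probes, 658 without a filter, 5025 with 14 arrays as samples, 3007 with slide and 6179 with scan day added, 1767 within the earlier scan day and 656 within the later one, and 1184, 526 and 793 without 129S1-No1, C57B6-No1 and 129S1-No2. Against primary cells they became 8831 (mHep, from 1515) and 8506 (eHep, from 2279) without a filter, 4245 and 5115 with C57B6-No1 alone, 4066 and 5488 with the earlier scan alone, 960 for mHep under normexp, and 270 to 1898 and 704 to 2791 without 1 mouse. In the fit of 12 arrays normexp gave 3677 within 129S1-No1 (from 7004), 1538 within C57B6-No1 (from 3961), 610 for the difference of changes (from 2613), 1493 for the eHep level (from 4324) and 1780 for the mHep level (from 4375). No filter gave 12361 within 129S1-No1, and slide as a block 3030 there, 1330 for the difference of changes and 2244 for the mHep level. Leaving out 1 array gave 4691 to 8449 within 129S1-No1, 2937 to 5284 within C57B6-No1, 1490 to 4966 for the difference of changes, 3003 to 5491 for the eHep level and 3093 to 5494 for the mHep level.

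Signs turned as follows, on the log2 scale. Under normexp Krt80 between media was 0.19, its mHep level difference 0.20, and Krt18 against primary 0.030 in mHep and 0.61 in eHep. Under quantile normalization Krt8 between media was 0.35, Krt18 against primary 1.58 in mHep and 1.71 in eHep, Krt18 within C57B6-No1 0.061, the eHep level difference of Krt8 -0.026 and the mHep level difference of Krt14 -0.14. In the deposited table these were 0.3466, 1.563, 1.704, 0.0097, -0.023 and -0.1403. With the percentile of detected probes Krt8 between media was 0.085 and Krt18 against primary 0.033 in mHep and 0.39 in eHep. In the earlier scan Krt8 was 0.36, Krt19 0.90 and Krt80 0.87 between media, and in the later scan Krt20 was -0.25. Against primary, Krt18 in eHep was 0.092 with C57B6-No1 alone and Krt8 in eHep -0.016 with the earlier scan alone. With slide as a block Krt8 within C57B6-No1 was -0.20 and the mHep level difference of Krt14 -0.33. Leaving out 1 mouse gave -0.51 to 0.55 for Krt8, -1.54 to 0.89 for Krt19 and -0.18 to 2.45 for Krt20 between media, and -0.56 to 0.50 for Krt18 in eHep against primary. Leaving out 1 array gave, within C57B6-No1, -0.18 to 0.52 for Krt8, -0.97 to 0.48 for Krt14 and -0.71 to 0.32 for Krt18, and for the mHep level difference -0.81 to 0.63 for Krt14 and -0.85 to 0.18 for Krt18.

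Without the replicate block of mouse the count between media was 2. Replicate numbers within a mouse do not pair the arrays: same-numbered mHep and eHep arrays correlated at -0.05, -0.09 and -0.14 in 129S1-No1 and at 0.59, -0.10 and 0.69 in C57B6-No1. A replicate block by mouse and number gave 4307 calls for the difference of changes and 7174 for the eHep level, and turned the mHep level difference of Krt7 to 0.30 and of Krt18 to 0.58. With 3 mice, 1 primary array and readings of Krt14 and Krt80 near background, differences of these genes against primary cells cannot be sized.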
